A study of Mus musculus with 32 samples.

Results

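The genes described here encode parts of the motile cilium: its dynein motors, radial spokes, central pair, nexin links, tektins, rootlet and basal body, and the factors and enzymes that build or modify them. They are 40 named genes of the 55291 in the astrocyte count table, chosen with results of these libraries known. Which values chose them is not recorded, so their changes with age in astrocytes and with Omomyc in culture are given as a description, with no p-value. RNA was sequenced from glia of TDP-43_Q331K mice, which carry a human TDP-43 with an amyotrophic lateral sclerosis mutation. Every library used here comes from that genotype, so no comparison concerns the transgene itself, and the sources used here do not give the promoter that drives it. Astrocytes had been sorted with an ACSA2 antibody from cortices and spinal cords at 3 months (n = 4), 6 months (n = 5) and 10 months (n = 2). Oligodendrocyte lineage cells had been sorted by O4 from the same tissues at 6 months (n = 4) and 3 months (n = 4). Microglia had been sorted by Cd11b from cortices alone at 10 months (n = 4) and 3 months (n = 3). Primary astrocytes of the same genotype were cultured for 14 days, replated, and treated the next day for 48 hours with 40 µM Omomyc (n = 3) or with vehicle (n = 3). Omomyc is a miniprotein that blocks binding of the transcription factor MYC to its partner and to DNA.

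A motile cilium is a microtubule bundle, the axoneme, with doublets in a ring around a central pair. Outer and inner dynein arms walk along the neighbouring doublet, radial spokes and the central pair time their strokes, and nexin links turn sliding into bending. The axoneme grows from a basal body that a fibrous rootlet anchors in the cell. In the brain and spinal cord such cilia stand on the ependymal cells that line the ventricles and the central canal, where the transcription factors Foxj1 and Rfx2 or Rfx3 switch on their genes. Astrocytes, oligodendrocyte precursors and neurons instead carry a single primary cilium, which has neither dynein arms nor a central pair.

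The 32 libraries held 6151583 to 20763190 counts in astrocytes, 9752907 to 18598533 in oligodendrocyte lineage cells, 4145129 to 5612071 in microglia and 30117025 to 37470972 in cultures. The sorts carried their own markers: the 10 astrocyte markers summed to between 24634 and 37609 CPM (each count scaled to the library's total) in the 3 month astrocyte libraries, against 404 to 708 CPM in the 3 month oligodendrocyte libraries. The astrocyte sorts were not pure, since 10 myelin markers summed to between 16240 and 37588 CPM in them. In cultures the astrocyte markers summed to between 4599 and 5562 CPM. These are bulk samples, so more ciliated cells and more ciliary RNA per cell cannot be told apart. Nothing in the labels ties the libraries of a group to separate animals or cultures, so the p-values below measure the spread between these libraries, which may be technical.

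The ciliary genes were abundant in the astrocyte sorts. On the deposited TPM scale, which divides by transcript length and so allows levels of different genes to be compared, Ccdc153, a nexin link component, led with 261 ± 98.7 TPM (SD over 11 libraries of 3 ages) and lay above 99.0% of the detected genes. The spoke head protein gene Rsph1 followed at 234 TPM and the transmembrane protein gene Tmem212 at 212 TPM. The next were Ak7, an axonemal adenylate kinase, at 135 TPM, the spoke head gene Rsph4a at 133 TPM, the inner arm light chain gene Dnali1 at 129 TPM and the basal body gene Cfap126 at 128 TPM. Tekt1, a tektin inside the doublet wall, had 90.2 TPM. Ccdc113 had 74.2 TPM, Drc1 of the nexin link 71.6 TPM, the outer arm intermediate chain gene Dnaic1 58.2 TPM and Catip 54.7 TPM. The genes of the largest proteins were lower per length, with Dnah9 at 22.6, Hydin at 19.5, Dnah5 at 16.2 and Dnah11 at 14.1 TPM. Ttll10, which adds glycine to tubulin tails, was lowest at 3.60 TPM. Neighbours in this order, such as Ccdc153 and Rsph1, or Ak7, Rsph4a, Dnali1 and Cfap126, differed by less than the SD of a gene over the 11 libraries. That SD takes in the 3 ages, and within each library Ccdc153 lay above Rsph1.

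Summed over the 40 genes, the level was highest in sorted astrocytes and lowest in oligodendrocyte lineage cells. The sums were 1298, 1757, 1763 and 1697 CPM in the 4 libraries at 3 months, 2029.7, 1741, 2224, 2262 and 2678 CPM in the 5 libraries at 6 months, and 3130.4 and 2459.8 CPM in the 2 libraries at 10 months. The 10 month libraries did not overlap the 3 month libraries, but replicate 5 at 6 months lay above the lower 10 month library. In oligodendrocyte lineage cells the sums were 76.2, 112, 104 and 73.4 CPM at 6 months against 55.7, 75.2, 58.6 and 53.3 CPM at 3 months. Microglia had 187, 173, 149 and 176 CPM at 10 months against 169.6, 102 and 109 CPM at 3 months, read with a 3′ end kit. Cultures had 643, 426 and 412 CPM with Omomyc against 541, 336 and 299 CPM with vehicle, over the 39 genes in that table. The tables come from different kits, so sums of different sorts other than astrocytes and oligodendrocyte lineage cells are levels side by side and were not tested.

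**Figure D1:**
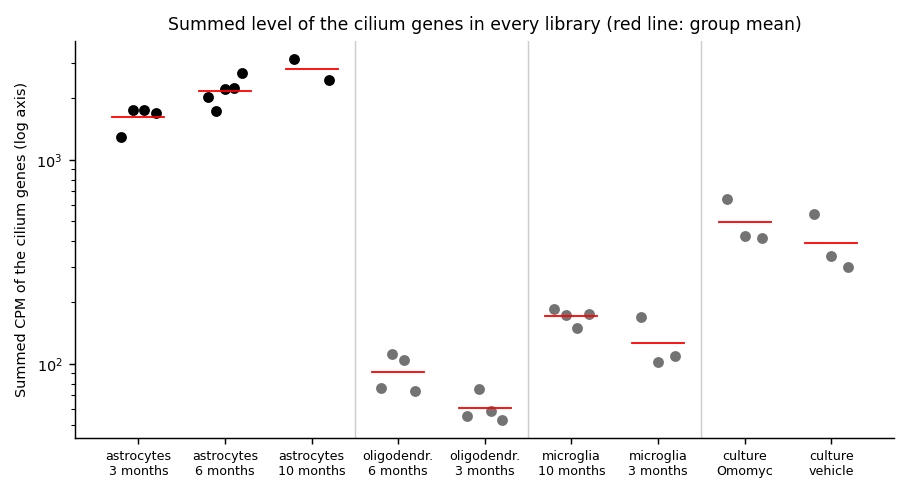
Summed CPM of the ciliary genes in each library, on a log axis, by sort or culture and by age or treatment; points are libraries and red lines are group means. The astrocyte means at 3, 6 and 10 months were 1629, 2187 and 2795 CPM, while the oligodendrocyte lineage libraries all lay at or below 112 CPM.

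With age, every ciliary gene measured in the astrocyte sorts had a higher mean at 6 and at 10 months than at 3 months, and 38 of 40 were ordered by age. At 10 months over 3 months the median log2 fold change of the 40 genes was 0.75, against 0.0151 over all 16189 genes tested. edgeR's quasi-likelihood test, at a Benjamini-Hochberg adjusted p under 0.05 over all genes, called 28 of the 40 higher and 0 lower, where 11.5% of all genes were called higher and 11.2% lower. For 32 of the 40 both 10 month libraries lay above all 4 of the 3 month libraries, as they did for 24% of all genes, and for 0 did both lie below, against 21.5% of all genes. At 6 months over 3 months, 22 of 40 were called higher and 0 lower, where 6.28% of all genes were called higher and 8.29% lower, and the median log2 fold change was 0.48 against 0.0034. The 15 genes whose 6 month libraries all lay above the 3 month ones compare with 5.69% of all genes, and the 0 whose 6 month libraries all lay below with 7.4%. At 10 over 6 months, 6 of 40 were called higher and 0 lower (0.574% of all genes higher and 0.334% lower), and the median was 0.31.

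One library weighed on the 10 month result. Replicate 1 of the 10 month astrocytes was the higher of its pair for 38 of the 40 genes, and without it 13 remained called over 3 months. Those 13 were Ak7, Catip, Ccdc114, Ccdc153, Ccdc81, Crocc, Dnaaf3, Dnaic2, Iqcd, Lrrc71, Rsph1, Ttll10 and Ubxn11, and they also stayed called when any other single library was left out. Replicate 1 of the 3 month astrocytes was the lowest of its group for 34 genes, and without it 25 of the 28 calls stood. Of the 6 calls between 10 and 6 months, 1 stood without replicate 1 at 10 months, 0 without replicate 2 at 10 months, and 3 without replicate 3 or 4 at 6 months.

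**Figure D2:**
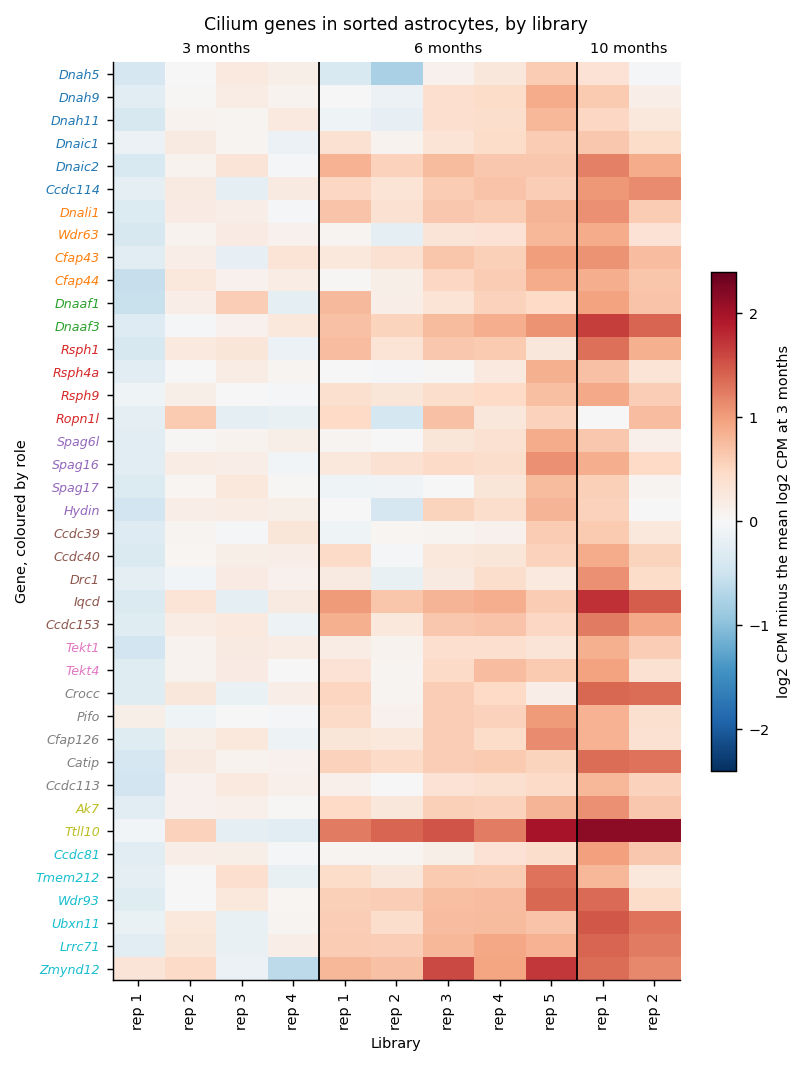
Each of the 40 genes (rows, names coloured by role) in each of the 11 astrocyte libraries (columns, by age), as log2 CPM minus the gene's mean log2 CPM at 3 months. The colours deepen towards 10 months in nearly all rows, most in Ttll10, Iqcd, Dnaaf3, Ubxn11, Crocc, Lrrc71 and Catip, and least in Dnah5 and Hydin.

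Among the rootlet and basal body genes, Crocc and Catip had the largest differences at 10 over 3 months. Crocc encodes rootletin, the fibre of the ciliary rootlet (chromosome 4, 141016637 to 141060550, minus strand, GRCm38, protein coding). It had 165 and 160.0 CPM at 10 months, against 51.8, 76.9, 56.8 and 71.2 CPM at 3 months. At 6 months Crocc had 90.8, 66.5, 95.4, 88.1 and 70.9 CPM, which overlaps the 3 month range, so most of its change lay between 6 and 10 months. Its log2 fold change was 1.34 ± 0.16 (SE) at 10 over 3 months, 0.36 ± 0.13 at 6 over 3 months and 0.98 ± 0.15 at 10 over 6 months. Catip, a regulator of actin and of cilium formation (chromosome 1, 74362108 to 74369321, plus strand), had 55.9 and 54.3 CPM at 10 months, against 16.8, 25.7, 23.3 and 23.8 CPM at 3 months. Its 5 libraries at 6 months lay between both groups, at 32.6, 30.4, 33.3, 34.1 and 32.0 CPM, and its log2 fold change was 0.54 ± 0.11 at 6 over 3 months and 1.30 ± 0.13 at 10 over 3 months. The 3 ages of Catip therefore did not overlap. Ccdc113, which acts with centriolar satellites in cilium formation, had 37.8 and 31.9 CPM at 10 months against 15.7 to 25.5 CPM at 3 months (log2 0.66 ± 0.17). Pifo, needed for cilium disassembly, and Cfap126, which positions basal bodies, had smaller differences of 0.62 and 0.61 ± 0.22, and Cfap126 was not called. As a group, 4 of these 5 genes were called, and their summed level at 3, 6 and 10 months was 166 ± 22.7, 226 ± 26.9 and 340.3 ± 28.4 CPM (SD; n = 4, 5 and 2).

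Among the dynein arm genes the median log2 fold change at 10 over 3 months was 1.15 for the 2 assembly factors, 0.80 for the inner arm and its tether, and 0.47 for the outer arm. Dnaaf3, a cytoplasmic factor that preassembles dynein arms (chromosome 7, 4522933 to 4532453, minus strand), had 46.4 and 38.9 CPM at 10 months, against 11.8, 14.2, 15.7 and 17.6 CPM at 3 months. Its 6 month libraries held 21.3 to 31.1 CPM and overlapped neither group, and its log2 fold change was 0.78 ± 0.13 at 6 months and 1.51 ± 0.16 at 10 months. Dnaaf3 shares exon sequence with Tnni3 on the same strand, so reads could be split between them. The other assembly factor, Dnaaf1, had 0.79 at 10 over 3 months, and both factors were called. Of the 6 outer arm genes, the docking complex gene Ccdc114 (1.06 ± 0.14), the intermediate chain gene Dnaic2 (1.04) and its partner Dnaic1 were called at 10 months. Dnaic1 had 57.0 and 49.5 CPM at 10 months against 33.2 to 42.4 CPM at 3 months (log2 0.54). The 3 heavy chain genes of the outer arm were not called. Dnah5 had 85.7 and 65.4 CPM at 10 months, against 51.1, 67.9, 79.4 and 74.6 CPM at 3 months (0.15 ± 0.30), and its groups overlapped. Dnah9 gave 0.41 and Dnah11 0.36. Of the 4 genes of the inner arm and its tether, Dnali1 (0.86), Cfap43 (0.89) and Cfap44 (0.74) were called and Wdr63 (0.62) was not. Dnali1 had 115 and 81.3 CPM at 10 months against 42.4 to 61.5 CPM at 3 months, without overlap.

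Radial spoke and central pair genes, which regulate the motors, moved less evenly. Rsph1 had 154 and 112 CPM at 10 months, against 47.5, 72.3, 75.4 and 56.3 CPM at 3 months (1.09 ± 0.18), and Rsph9 (0.76) was also called. Rsph4a had 185 and 144 CPM against 95.5, 116, 129 and 119.8 CPM (0.52), which did not overlap and was not called. Ropn1l, another spoke gene, gave 0.40. Of the 4 central pair genes, Spag16 (0.69) was called, while Spag6l (0.39), Spag17 (0.33) and Hydin (0.28 ± 0.29) were not. Hydin, which builds a projection of the central pair, had 123 and 83.4 CPM at 10 months, against 60.3, 92.9, 93.7 and 91.4 CPM at 3 months, and the groups overlapped. Summed over the central pair genes the means at 3, 6 and 10 months were 168, 213 and 218 CPM. Spag6l resembles its paralog Spag6, so its reads may be shared.

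The nexin link genes held the abundant Ccdc153 and the strongly changed Iqcd. Ccdc153 (chromosome 9, 44240676 to 44247306, plus strand) had 239 and 187 CPM at 10 months, against 81.7, 113, 118 and 92.7 CPM at 3 months, with 120.1 to 182 CPM at 6 months. The 3 month libraries lay below all others, and the log2 fold change was 0.59 ± 0.13 at 6 months and 1.07 ± 0.16 at 10 months. Iqcd, a subunit of the nexin-dynein regulatory complex (chromosome 5, 120589016 to 120607118, plus strand), had 42.4 and 34.1 CPM at 10 months, against 9.90, 15.8, 10.8 and 14.6 CPM at 3 months. Its 6 month libraries held 19.0 to 25.6 CPM, between both groups without overlap, and its change at 10 months was 1.57 ± 0.17. Drc1 (0.79), which starts assembly of that complex, and Ccdc40 (0.71) were called, and Ccdc39 (0.43), which with Ccdc40 forms the ruler that sets the axonemal repeat, was not. Drc1 had 93.2 and 59.8 CPM at 10 months against 37.4 to 50.3 CPM at 3 months. The tektin genes Tekt1 (0.70) and Tekt4 (0.69) were both called, and Tekt1 had 59.0 and 49.7 CPM at 10 months against 23.8 to 38.0 CPM at 3 months.

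Ttll10 showed the largest fold of the 40 and the lowest level per length. This tubulin glycylase gene (chromosome 4, 156034840 to 156059414, minus strand) had 6.95 and 6.94 CPM at 10 months, against 1.51, 2.30, 1.36 and 1.29 CPM at 3 months. At 6 months it had 3.74, 4.16, 4.45, 3.70 and 6.23 CPM, so that no library of one age overlapped another age, and its log2 fold change was 1.51 ± 0.25 at 6 over 3 months. Ak7, the other enzyme (chromosome 12, 105705976 to 105782447, plus strand), had 244 and 177 CPM at 10 months, against 95.3, 123, 124 and 116 CPM at 3 months (0.88 ± 0.15). Of the 6 remaining genes, 5 were called at 10 months. Ubxn11, a UBX domain gene (chromosome 4, 134102570 to 134127593, plus strand), had 76.6 and 67.0 CPM at 10 months, against 24.5, 32.6, 24.3 and 28.5 CPM at 3 months (1.38 ± 0.13). Lrrc71 had 49.9 and 45.1 CPM against 15.7, 23.2, 16.8 and 21.3 CPM (1.30 ± 0.15). Both genes had 6 month libraries between the other ages without overlap. Zmynd12 reached the same change at both ages (1.24 ± 0.28 at 6 months and 1.24 ± 0.34 at 10 months), with 5.67 and 5.0 CPM at 10 months against 1.45 to 3.12 CPM at 3 months, and Wdr93 and Ccdc81 gave 0.95 and 0.82 at 10 months. Tmem212 differed from the others: it had 52.7 and 36.4 CPM at 10 months against 25.7, 30.7, 40.5 and 26.8 CPM at 3 months (0.53), was not called, and was highest at 74.9 CPM in replicate 5 at 6 months.

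**Figure D3:**
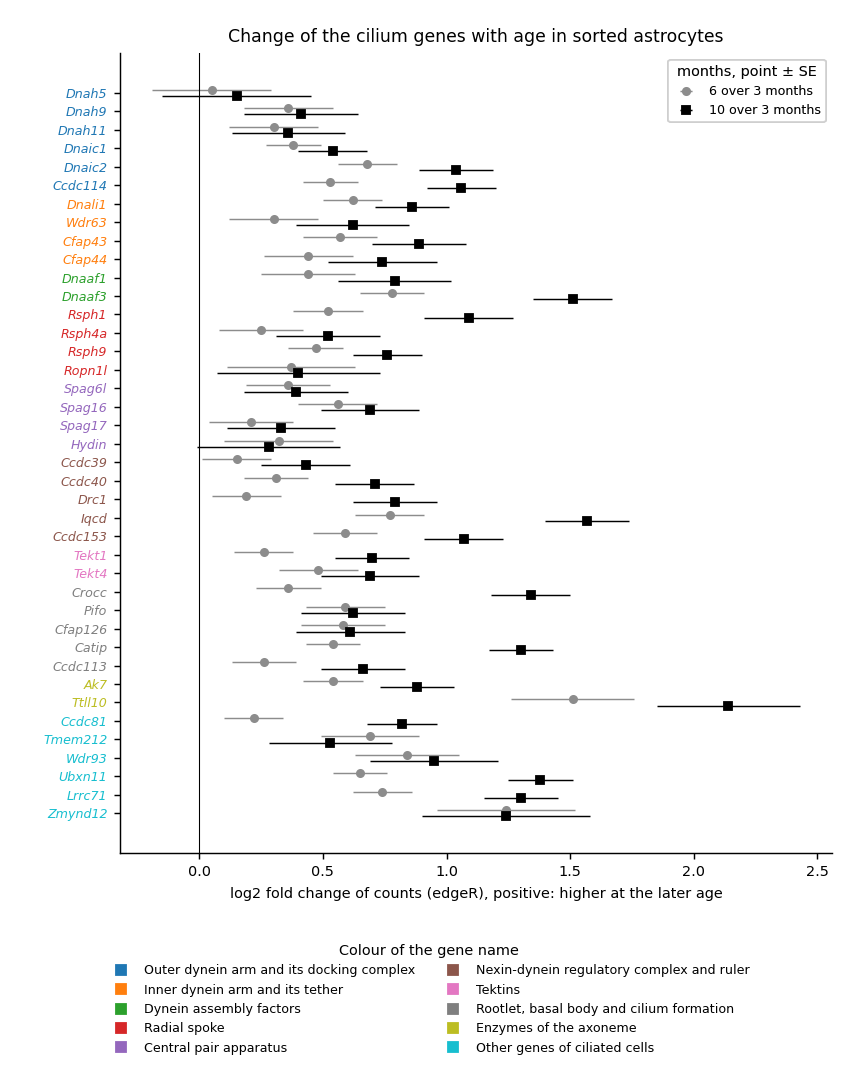
Log2 fold change with its standard error for each of the 40 genes in sorted astrocytes, 6 over 3 months (grey circles) and 10 over 3 months (black squares), grouped by role. All points lie above 0; Ttll10 is highest at 2.14 for 10 over 3 months and Dnah5 lowest at 0.15.

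Ciliary genes outside the 40 were counted in lists by structure, which were drawn up with earlier results of these data known. At 10 over 3 months, 31 of 49 tested genes of other spoke, central pair, nexin and doublet proteins were called higher and 0 lower, with a median log2 fold change of 0.69; among them Cfap100 had 1.19 ± 0.14, Rsph10b 1.29 and Ttll9 1.18. Of 23 tested genes for other dynein arm, docking and assembly proteins, 7 were called higher and 0 lower (median 0.43), with the docking genes Ttc25 at 1.21 ± 0.17 and Ccdc151 at 0.88, and the assembly gene Zmynd10 at 0.83. Centriole, rootlet and linker genes were mixed, 9 higher and 4 lower of 25 (median 0.26). Crocc2, the paralog of Crocc, rose by 1.51 ± 0.20 and the linker gene Lrrc45 by 1.08 ± 0.16, while Cep97, which restrains cilium growth at the centriole cap, fell by 0.92 on the log2 scale. The genes that primary cilia share had smaller medians than the other axonemal and dynein genes. Intraflagellar transport genes had 8 higher and 1 lower of 31 (median 0.21). Genes of the BBSome, transition zone and Hedgehog signalling had 10 higher and 1 lower of 35 (median 0.23). Of all genes, 11.5% were called higher and 11.2% lower, with a median of 0.0151. At 6 over 3 months these 5 lists had, in the same order, 18 higher and 0 lower of 49, 5 and 0 of 23, 2 and 3 of 25, 2 and 1 of 31, and 4 and 0 of 35. Of all genes, 6.28% were called higher and 8.29% lower.

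The regulators of the ciliary programme did not move as a block. Foxj1, the master factor of motile cilia, had 325 and 256 CPM at 10 months, against 146, 181, 193 and 192 CPM at 3 months, with 191 to 280.1 CPM at 6 months. Its log2 fold change was 0.42 ± 0.12 at 6 months and 0.70 ± 0.15 at 10 months, and the 10 month libraries lay above all 3 month libraries. Rfx2, which binds X-boxes of ciliary promoters, averaged 31.0, 39.6 and 50.2 CPM in ascending order of age (0.70 ± 0.14 at 10 over 3 months). Its relative Rfx3 went the other way, with 86.9 and 80.7 CPM at 10 months against 124, 110.0, 123 and 108 CPM at 3 months (−0.47 ± 0.16). Of the 11 tested genes of this list, 4 were called higher at 10 months (Foxj1, Rfx2, Rfx1 at 0.63 and Trp73 at 0.62) and 1 lower (Rfx3).

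Markers of other cells moved in the same libraries. The 10 ependymal genes outside the axoneme, of which Aqp4 is also an astrocyte marker, had 4 of 10 called higher at 10 months and 5 of 10 at 6 months, 0 lower, with medians of 0.47 and 0.45. They summed to 2270 to 3060.0 CPM at 3 months and to 3042 to 3634 CPM at 6 months, and the 10 month libraries had 3093 and 3814 CPM. None was at 0: Rarres2 averaged 68.6 ± 10.7, 99.6 ± 14.3 and 95.9 ± 35.7 CPM at the 3 ages, and Mia, the lowest, 2.7, 3.27 and 2.51 CPM. Vit was called at 0.79 ± 0.11 and Nnat at 0.96 ± 0.18 at 10 months. Choroid plexus markers, from an epithelium whose cells carry cilia of their own, went the other way, 10 of 16 lower and 0 higher at 10 months (median −2.42). They summed to 298 to 1665 CPM at 3 months and to 247 to 411 CPM at 6 months, and the 10 month libraries had 105 and 173 CPM. Myelin markers had 0 higher and 5 lower of 10 at 10 months. Astrocyte markers had 0 higher and 1 lower of 10, and endothelial markers 0 higher and 2 lower of 8. Microglia markers had 3 higher and 0 lower of 8 (median 1.02), with sums of 44.9 to 52.5 CPM at 3 months and 58.7 and 65.0 CPM at 10 months, and oligodendrocyte precursor markers 2 higher and 0 lower of 8. The part of these cell types in the change of the ciliary genes was not tested.

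GC content moved with the change too. Across the 40 genes the Spearman correlation of GC content with the log2 fold change at 10 over 3 months was 0.57, and 0.47 across 13571 genes, where genes are not independent replicates. The 20 genes of lower GC content (39.9% to 50.4%) had a median of 0.62, against −0.16 for all genes in that range. The 20 of higher GC content (51.0% to 63.9%) had 0.95, against 0.20. The genes with the largest called changes, Ttll10 (57.5%), Iqcd (56.5%), Dnaaf3 (58.1%), Ubxn11 (57.6%) and Crocc (63.9%), were all in that range. So was Ropn1l (55.5%), which was not called. The assembly factors Dnaaf3 and Dnaaf1 (57.5%) were above the heavy chain genes Dnah9 (51.0%), Dnah11 (48.0%) and Dnah5 (47.1%). Transcript length correlated with the log2 fold change by −0.25 across the 40 genes and by −0.3 across the 13571. The part of GC content and length in the differences between roles was not tested. With GC content and length corrected for, 28 of the 40 were called higher, while 1235 of all genes were called higher, against 1863 without the correction.

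Promoter sequence of RefSeq (GRCm38.p6), from 250 bases before to 50 after a start, was at hand for 35 of the 40 genes in 41 windows; Dnaaf1, Rsph1, Rsph4a, Iqcd and Ccdc81 have none here. Motifs were searched on both strands and none overlaps another. The forkhead core GTAAACA, the site type of Foxj1, was in 3 of the 41 windows (Ak7, Cfap43 and Ttll10), and in 3.65% of all 32851 windows. The X-box of the Rfx factors (GTTNCC and GGNAAC with 2 bases between) was in the window of 1 gene, Pifo, and in 0.451% of all windows. Only exact matches at this spacing were searched. Forms with a mismatch or another spacing were not counted, such as near matches in the windows of Cfap44 and Hydin. Its short form GTTGCCATG was in 1, Catip, and in 0.773% of all. The E-box CACGTG, the site type of MYC, was in 5 windows (Cfap126, Crocc, Dnaic2, Lrrc71 and Ubxn11), and in 7.15% of all. The stretches that hold a forkhead core or X-box are shown because they hold the site types of the factors Foxj1, Rfx2 and Rfx3 measured above. They are given 5′ to 3′ on the strand of the gene, with the motif in capitals; TGTTTAC is the forkhead core read from the other strand.
Ttll10, from a start inside the gene, chr4:156050818-156050937, minus strand: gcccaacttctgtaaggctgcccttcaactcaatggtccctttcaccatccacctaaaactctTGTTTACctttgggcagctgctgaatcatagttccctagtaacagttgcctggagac
Ak7, chr12:105705831-105705981, plus strand: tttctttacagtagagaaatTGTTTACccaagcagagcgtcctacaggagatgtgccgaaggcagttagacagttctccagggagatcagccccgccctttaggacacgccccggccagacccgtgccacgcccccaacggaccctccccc
Cfap43, from a start inside the gene, chr19:47837362-47837481, minus strand: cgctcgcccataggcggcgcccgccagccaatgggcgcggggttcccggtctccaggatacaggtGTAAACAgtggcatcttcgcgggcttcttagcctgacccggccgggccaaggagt
Catip, chr1:74362015-74362134, plus strand: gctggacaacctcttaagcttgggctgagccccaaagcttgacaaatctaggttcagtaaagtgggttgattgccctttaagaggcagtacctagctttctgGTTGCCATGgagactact
Pifo, from a start inside the gene, minus strand: gcggttccGTTCCCTTGGCAACgtagta
A match describes these letters in this window and says nothing of binding.

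Set against oligodendrocyte lineage cells at 3 and 6 months together, all 40 genes were called higher in astrocytes, where 38.7% of all 16363 genes tested were. Of these, 19 did not pass the filter on low counts in oligodendrocyte lineage cells alone and entered the fit through the astrocyte libraries, where they are high, so that their calls had to follow. Tmem212, one of the 19, had the largest fitted difference, 8.17 ± 0.28, which rests on 11 counts at 3 months and 3 at 6 months in the oligodendrocyte libraries. It had 25.7 to 74.9 CPM in the astrocyte libraries of those ages, against 0 to 0.256 CPM in the oligodendrocyte libraries. Ccdc153 followed with 7.57 ± 0.31, then Lrrc71 (6.72), Spag17 (6.6) and Ccdc81 (6.31). The smallest differences were those of Dnaic2 (1.85 ± 0.10), Rsph9 (2.26), Ccdc39 (2.36) and Crocc (2.38). Since astrocyte values may have chosen the genes, these differences are given with no p-value. Crocc had 9.69 to 16.3 CPM at 6 months and 7.69 to 13.7 CPM at 3 months in oligodendrocyte libraries, and rootletin also links centrioles in cells with no motile cilium. All 40 calls stood when any single library was left out, which adds nothing for the 19, since their calls had to follow. Of the other axonemal genes 49 of 49 tested were called higher, while 26 of that list passed the filter in oligodendrocyte lineage cells. Called higher too were 20 of 23 other dynein genes, with 2 lower, while 11 of that list passed the filter in oligodendrocyte lineage cells. The genes of both lists that did not pass it entered this fit through the astrocyte libraries. Centriole and linker genes split, 10 higher and 6 lower of 25 with a median of −0.01. Foxj1 was higher by 1.96 ± 0.12, Rfx2 by 3.89 ± 0.14 and Rfx3 by 1.97 ± 0.09, and astrocyte markers were higher for 10 of 10.

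Within oligodendrocyte lineage cells, 21 of the 40 genes passed the filter on low counts, and at 6 over 3 months 7 of them were called higher and 1 lower. The background was 14.9% of all 14050 genes higher and 9.46% lower. The outer arm heavy chain gene Dnah9 had 3.07, 3.08, 2.90 and 2.18 CPM at 6 months, against 0.485, 1.07, 0.561 and 0.463 CPM at 3 months (log2 2.08 ± 0.31, edgeR adjusted p = 0.00125). Dnah11, another outer arm heavy chain gene, had 2.02, 3.02, 3.42 and 1.42 CPM at 6 months against 0.347, 1.18, 0.561 and 0.463 CPM at 3 months (1.92 ± 0.41, edgeR adjusted p = 0.00755). Neither gene overlapped between ages, and these 2 calls stood with any library left out. Dnah5, also an outer arm heavy chain gene, fell, with 0.726, 0.785, 0.817 and 2.4 CPM at 6 months against 3.53, 2.25, 6.43 and 2.31 CPM at 3 months (−1.70 ± 0.48, edgeR adjusted p = 0.0272), although replicate 4 at 6 months overlapped the 3 month range. Ubxn11 had 4.12, 6.52, 4.38 and 3.38 CPM at 6 months against 2.15, 3.17, 2.19 and 2.08 CPM at 3 months (0.94 ± 0.25, edgeR adjusted p = 0.0205). Ccdc39 had 13.7, 9.00, 10.2 and 7.19 CPM at 6 months against 6.38, 6.75, 6.63 and 5.17 CPM at 3 months (0.68 ± 0.19, edgeR adjusted p = 0.0271). Both were without overlap. The calls of Cfap44 (2.29 ± 0.59), Wdr63 (2.06 ± 0.58) and Rsph1 (1.65 ± 0.50) rested on libraries that overlapped between ages; Cfap44, for example, had 0.969, 4.53, 5.64 and 2.07 CPM at 6 months against 0.901, 1.13, 0.408 and 0.231 CPM at 3 months. The count of calls was 15 without replicate 2 at 3 months and 13 without replicate 4 at 6 months, and it was 4 without replicate 3 at 3 months and 3 without replicate 2 or replicate 3 at 6 months. Foxj1 had 33.3 to 53.3 CPM at 6 months and 34.2 to 54.2 CPM at 3 months (−0.09 ± 0.19, edgeR adjusted p = 0.757).

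The same oligodendrocyte libraries differed in markers of other cells. All 8 endothelial markers were called higher at 6 months (median 2.68), with Pecam1 at 42.9 ± 12.4 CPM against 6.44 ± 1.29 CPM at 3 months. Choroid plexus markers had 5 higher and 0 lower of 16 (median 2.47), and summed to 323 to 4089 CPM at 6 months against 41.9 to 955 CPM at 3 months. Their Ttr had 1655, 3620.3, 3625 and 273 CPM at 6 months against 704, 861, 123 and 33.5 CPM at 3 months. Of 6 tested ependymal genes outside the axoneme, Pltp was called higher (2.29). Neuronal markers had 5 higher and 0 lower of 9 (median 0.92), the sort's own myelin markers 2 higher and 7 lower of 10, and precursor markers 0 higher and 3 lower of 8. The part of these cells in the calls was not tested. Other dynein genes had 3 higher and 0 lower of 11, with Dnah6 at 1.88, and other axonemal genes 6 higher and 0 lower of 26.

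The difference between both sorts in the change from 3 to 6 months was fitted directly, with the astrocyte libraries of the age comparison above. Those astrocyte values may have chosen the genes, so the differences are given as a description, with no p-value. The fit called 11 of the 40 genes, 5 with the higher log2 change in astrocytes and 6 with the higher one in oligodendrocyte lineage cells, where the shares of all genes were 6.44% and 9.97%. The median difference was −0.26, against 0.017 over all genes. Higher in astrocytes was the change of Wdr93 (3.08 ± 0.66), Ropn1l (3.06 ± 0.64), Dnah5 (1.90 ± 0.60), Ccdc40 (1.05 ± 0.25) and Dnaic2 (0.89 ± 0.19). Wdr93, Ropn1l, Pifo, Spag6l, Ccdc113 and Tekt1 did not pass the filter on low counts in oligodendrocyte lineage cells alone and entered this fit through their astrocyte levels, so their differences rest on few oligodendrocyte counts. Wdr93 had 0, 0.0604, 0.297 and 0 CPM there at 6 months, or 5 counts in all, against 0.277, 0.614, 0.510 and 0.386 CPM at 3 months. Dnaic2, in contrast, had 6.13 to 9.59 CPM at 6 months and 8.44 to 9.95 CPM at 3 months in those cells, and rose in astrocytes. Higher in oligodendrocyte lineage cells was the change of Pifo (−2.39 ± 0.80), Spag6l (−2.15 ± 0.60), Ccdc113 (−1.96 ± 0.44), Tekt1 (−1.84 ± 0.49), Dnah9 (−1.62 ± 0.40) and Dnah11 (−1.52 ± 0.47). Ccdc113 had 1.21, 2.36, 2.08 and 0.654 CPM at 6 months against 0.277, 0.563, 0.204 and 0.231 CPM at 3 months in oligodendrocyte lineage cells. The fold was larger there, but the level stayed below that in astrocytes, which had 15.7 CPM or more in each library. The calls of Wdr93, Ropn1l, Ccdc40, Dnaic2, Ccdc113, Tekt1 and Dnah9 stood whichever library was left out, and those of Dnah5, Pifo, Spag6l and Dnah11 did not.

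**Figure D4:**
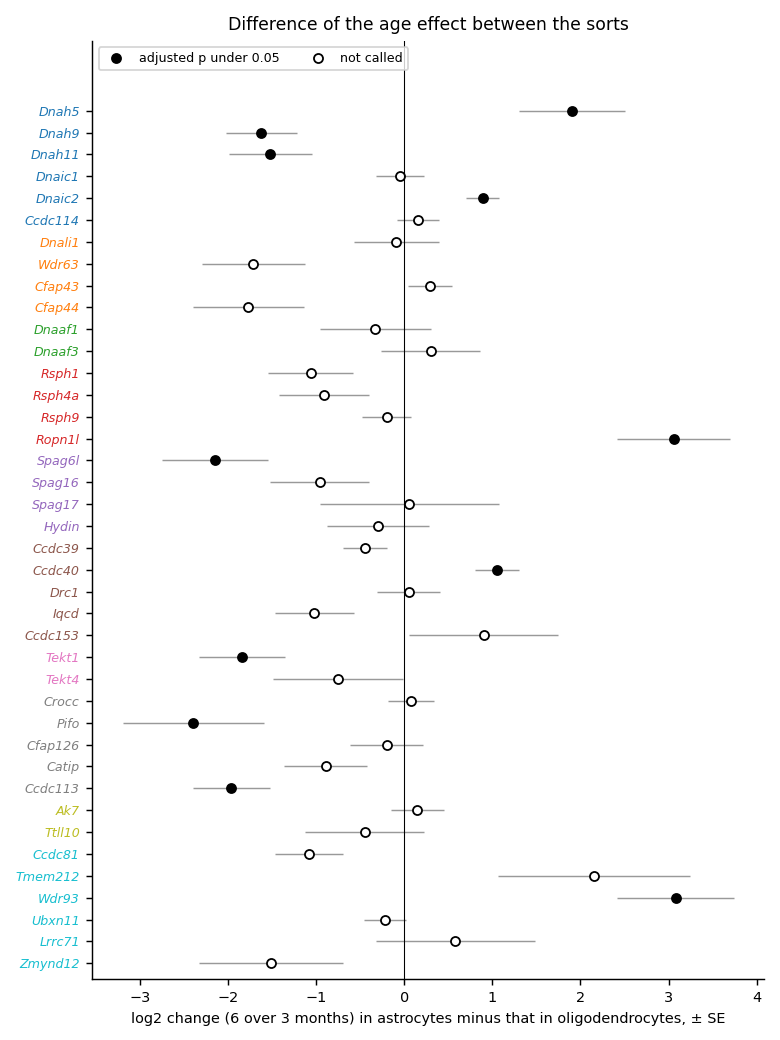
For each of the 40 genes, the 6 over 3 month log2 change in astrocytes minus that in oligodendrocyte lineage cells, with its standard error; filled points had an adjusted p under 0.05. Filled points run from 3.08 (Wdr93) down to −2.39 (Pifo), 5 above 0 and 6 below it.

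In cortical microglia, 26 of the 40 genes passed the filter, and at 10 over 3 months 1 was called higher and 0 lower, where 1.94% of all 12320 genes were called higher and 1.27% lower. The 10 month libraries all lay above the 3 month ones for 5 of the 26 and all below for 1, against 8.64% and 8.15% of all genes. The gene called higher, Rsph4a, had 21.8, 15.7, 16.6 and 11.6 CPM at 10 months, against 5.78, 1.35 and 3.91 CPM at 3 months (2.13 ± 0.46, edgeR adjusted p = 0.0216). The groups did not overlap, but the call was lost when replicate 1, 3 or 4 at 10 months or replicate 3 at 3 months was left out. Dnah9 had 7.80, 10.4, 7.57 and 9.38 CPM at 10 months against 5.96, 3.83 and 0.921 CPM at 3 months (1.28 ± 0.55, edgeR adjusted p = 0.244). Tmem212 had 7.80, 8.38, 1.62 and 8.19 CPM against 1.81, 0 and 0.460 CPM (3.00 ± 0.92, edgeR adjusted p = 0.0921), with replicate 3 at 10 months inside the 3 month range. Crocc lay below at 10 months, with 4.10, 3.83, 3.61 and 3.92 CPM against 6.68, 8.79 and 4.37 CPM (−0.77 ± 0.51, edgeR adjusted p = 0.485). Zmynd12 was at 0 in all microglia libraries. Choroid plexus markers summed to 86.2 to 3046 CPM at 10 months and 302 to 2613 CPM at 3 months in these libraries, with 0 of 11 tested called in either direction, and ependymal genes outside the axoneme to 323 to 362 CPM at 10 months and 222 to 763 CPM at 3 months. Their part in the Rsph4a result was not tested.

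In cultured astrocytes, most ciliary genes lay higher with Omomyc within each culture number, and how many were called depended on whether that number entered the fit. Without it 0 of 39 genes were called by edgeR's quasi-likelihood test and 0 by DESeq2, 4 had an unadjusted p under 0.05 as had 1022 of all 16119 genes, and 0% of all genes were called higher and 0.0186% lower. With it as a replicate block, 12 were called higher and 0 lower, where 2.23% of all 16119 genes were called higher and 1.84% lower. A correction for GC content and length besides gave 21 calls, while the calls of higher genes over the whole table went up as well, to 672 against 360 without it. The numbers were taken to pair the cultures from these same counts, as described with the processing, and no label states such a pairing. For 28 of the 39 genes the Omomyc library lay above its vehicle partner in all 3 pairs, as for 23.1% of all genes, and for 9 more in 2 pairs. Ccdc114 was higher in 1 pair and Catip in 0. Replicate 1 had the highest level for 38 of 39 genes with Omomyc and for 36 of 39 with vehicle. All 3 Omomyc libraries lay above all 3 vehicle libraries for Ccdc153, Hydin and Wdr63, where 6.23% of all genes did so and 6.6% did the reverse.

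By role, the blocked calls took in 2 of 4 central pair genes (median log2 fold change 1.04), 2 of 6 outer arm, 2 of 4 inner arm, 1 of 2 enzyme, 1 of 5 rootlet and basal body and 0 of 2 assembly genes. Ak7 had 15.8, 7.95 and 8.86 CPM with Omomyc, against 8.88, 3.76 and 3.75 CPM with vehicle in the same culture order, and the paired log2 differences were 0.83, 1.08 and 1.24 (blocked estimate 1.03 ± 0.11). Wdr63, an inner arm intermediate chain gene, had 8.14, 4.68 and 5.51 CPM with Omomyc against 3.98, 1.88 and 1.94 CPM with vehicle, paired differences of 1.03, 1.31 and 1.51 (1.26 ± 0.14). Hydin had 3.09, 1.75 and 1.89 CPM against 1.68, 0.533 and 0.668 CPM (1.27 ± 0.22), and Wdr63 and Hydin groups did not overlap. Lrrc71 had 1.72, 0.499 and 0.702 CPM with Omomyc against 0.822, 0.157 and 0.191 CPM with vehicle (1.37 ± 0.29), and Spag6l 25.4, 15.6 and 15.4 CPM against 15.6, 9.98 and 7.45 CPM (0.79 ± 0.10). The other blocked calls were Dnah5 (0.65 ± 0.10), Pifo (0.64 ± 0.14), Tekt1 (0.63 ± 0.13), Dnah9 (0.62 ± 0.10), Rsph4a (0.59 ± 0.11), Ccdc40 (0.44 ± 0.08) and Dnali1 (0.36 ± 0.08). Both assembly factors were outside the calls, Dnaaf1 at 0.77 ± 0.18 and Dnaaf3 at −0.00 ± 0.07, as was Catip at −0.18 ± 0.09. Dnaaf1 was higher with Omomyc in all 3 pairs (paired differences of 0.56, 0.83 and 1.02). Catip, Dnaaf3 and Ccdc114 were among the 13 that stayed called at 10 over 3 months in sorted astrocytes whichever library was left out. Ak7 and Lrrc71, called here, were also among those 13. Ccdc40, Dnali1, Pifo and Tekt1 were called here and at 10 over 3 months in sorted astrocytes. Hydin, Dnah5, Spag6l, Dnah9, Rsph4a and Wdr63, called here, were not called there. Across the 39 genes the Spearman correlation of transcript length with the log2 fold change without the block was 0.33, and 0.37 across 14238 genes. At 10 over 3 months in sorted astrocytes it was −0.25 across the 40 genes and −0.3 across 13571. For GC content it was −0.37 and −0.27 in culture. The part of length and GC content in which genes were called was not tested. Of the 5 genes with an E-box in their window, Lrrc71 had 1.32 without the block, Dnaic2 0.38, Cfap126 0.26, Crocc 0.10 and Ubxn11 0.06.

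**Figure D5:**
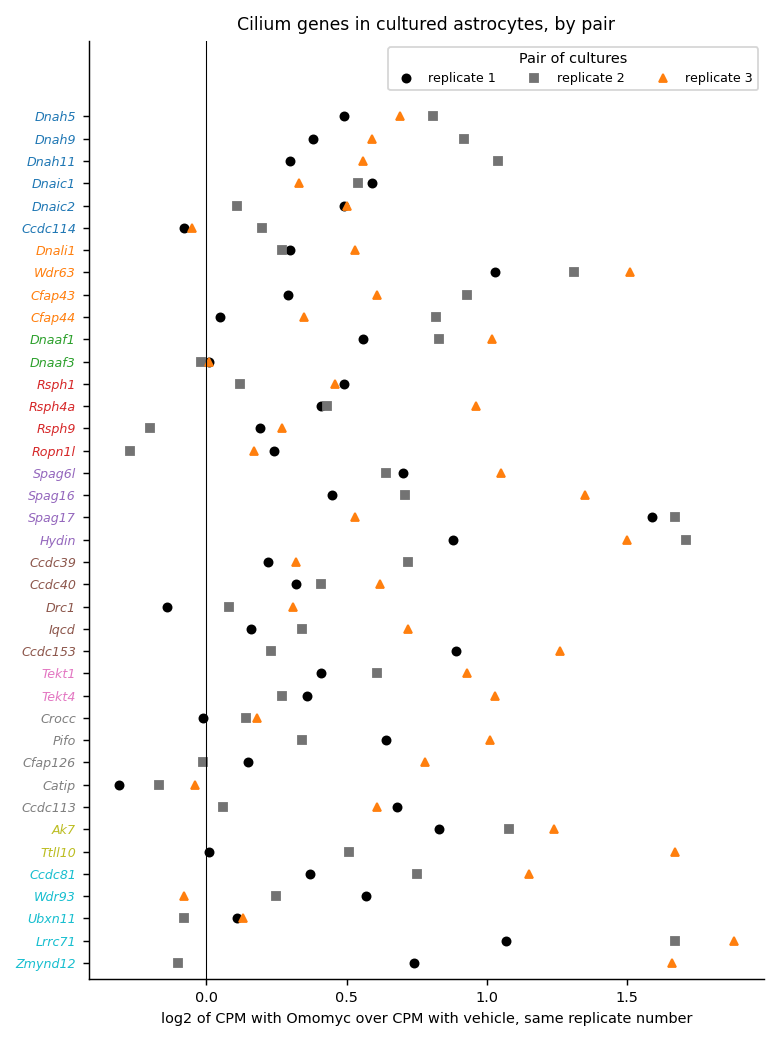
Log2 ratio of Omomyc over vehicle in each same-numbered pair of cultures, for the 39 ciliary genes in that table. Nearly all points lie above 0, with Lrrc71 at 1.07, 1.67 and 1.88 and Catip at −0.31, −0.17 and −0.04.

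Upstream regulators of multiciliated cells were also higher with Omomyc in the blocked fit. Of 13 genes of the ciliary programme, 6 were called higher and 0 lower. Myb, which acts early in multiciliated cell differentiation, had 27.3, 14.1 and 15.3 CPM with Omomyc, against 13.1, 5.36 and 5.22 CPM with vehicle (1.31 ± 0.11 with the block). Ccno, which is needed to amplify centrioles, had 17.3, 8.11 and 9.67 CPM against 7.92, 4.08 and 3.53 CPM (1.18 ± 0.11). Trp73, a transcription factor gene that drives Foxj1 and Myb, had 8.56, 4.68 and 5.43 CPM against 3.48, 1.19 and 1.5 CPM (1.65 ± 0.16). In each of the 3 genes every Omomyc library was higher than its vehicle partner. Foxj1 itself had 492, 387 and 338 CPM with Omomyc against 418, 350.0 and 255 CPM with vehicle and was not called (0.26 ± 0.07). Rfx2 gave −0.04 ± 0.06 and Rfx3 0.31 ± 0.09, neither called. Of 26 centriole, rootlet and linker genes, 4 were called higher and 0 lower. Deup1, the scaffold of the deuterosome on which multiciliated cells make centrioles, had 15.8, 7.61 and 8.97 CPM with Omomyc against 5.82, 2.82 and 2.23 CPM with vehicle (1.60 ± 0.14). Crocc2 rose by 1.77 ± 0.21 and the centriole kinase gene Plk4 by 0.49 ± 0.08. Other dynein genes had 5 of 23 higher, with the smallest p for Dnah6 (0.95), and other axonemal genes 9 of 45, with the smallest p for Cfap54 (0.50), and 0 were lower in both lists. Intraflagellar transport genes had 1 of 31 higher. None of these genes was called without the block.

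Markers of other cells in the cultures changed as well. Ependymal genes outside the axoneme had 0 higher and 1 lower of 10 (Nnat, −0.44), and their sums were 2203 to 2390 CPM with Omomyc and 2097 to 2476 CPM with vehicle. Choroid plexus markers had 0 higher and 1 lower of 11 and astrocyte markers 2 higher and 0 lower of 9. Microglia markers had 6 higher and 0 lower of 10, and summed to 2020.2 to 3923 CPM with Omomyc and 1747 to 3129 CPM with vehicle. In the myelin, precursor and endothelial lists Mbp (0.58 ± 0.07), Gpr17 (1.47 ± 0.18) and Flt1 (0.72 ± 0.15) were called higher. Of the neuronal markers, Tubb3 was called lower (−0.56 ± 0.09). No other gene of these lists was called. The part of these cells in the change of the ciliary genes was not tested.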

How the data were processed

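The authors deposited whole-number counts per gene for each table and, for the astrocyte and oligodendrocyte sorts, TPM, which were used only to compare levels between genes. Per the labels' protocols, astrocyte and oligodendrocyte libraries were made with the Lexogen CORALL mRNA V2 kit with molecular identifiers, microglia libraries with the Lexogen QuantSeq 3′ kit, and culture libraries with the Watchmaker mRNA kit and Twist identifier adapters. Per the submitters' processing notes, the tools included featureCounts 2.0.1, fastp, UMI-tools 1.0.1, DESeq2 and STAR 2.7.7a, and the builds were GRCm39, GRCm38.p6 and mm10; which build belongs to which table and whether counting used strand are not given in the sources used here. Exons of 3 of the 40 genes overlap another gene on the same strand and exons of 14 overlap one on the other strand (Dnaaf3 and Lrrc71 both), so their reads may be shared. The deposited normalized counts were not used. Ensembl identifiers were matched to symbols of GENCODE vM21, for 52093 of 53700 microglia rows and 17559 of 17572 culture rows; Tmem212 has no row in the culture table.

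CPM were computed from the counts and the summed counts of each library, the latter multiplied by the library's TMM factor. Each table was fitted with edgeR 4.0.16 in R 4.3.3 (TMM scaling, filterByExpr with a minimum count of 10, robust quasi-likelihood F test, Benjamini-Hochberg over all genes tested), with limma 3.58.1. For ages 3 and 6 months, both the astrocyte and the oligodendrocyte sorts entered a joint fit for the difference between sorts and between their age effects. The fits were tested on simulated counts. Numbers of the cultures were taken to pair them, because deviations from the group means correlated within each same-numbered pair (0.753, 0.515 and 0.797), and the block is printed beside that result. Other settings tried were DESeq2 1.42.0, a filter at 1 CPM or none at all, RLE scaling, the replicate block, each library left out and, chosen after seeing the data, a correction for GC content and length. The 40 genes and the lists were chosen with earlier results of these data known. Described in full were the 12 genes highest in TPM, the 5 largest called changes of each comparison, Foxj1, Rfx2 and Rfx3, and up to 3 genes of each other list with the smallest p; others are named to complete a count or a role.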

Additional observations from a re-analysis of the deposited data

Results flagged for a closer look

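In 117 tested sets of values, each from a group of 4 or 5 libraries, 1 library stood apart from the rest of its group by Dixon's criterion in 13 cases, where chance gives about 1 in 20. Replicate 5 of the 6 month astrocytes was highest for Rsph4a (206 CPM), Tmem212 (74.9 CPM) and Wdr93 (17.8 CPM). Of the 3 month astrocytes, replicate 1 was lowest for Hydin (60.3 CPM) and for the sum of the 40 genes (1298 CPM), and replicate 2 was highest for Ropn1l (4.61 CPM). Replicate 2 of the 3 month oligodendrocyte lineage cells was highest for Dnah9 (1.07 CPM), Hydin (1.38 CPM), Cfap126 (1.89 CPM) and Ubxn11 (3.17 CPM), and replicate 4 at 6 months was highest for Dnah5 (2.4 CPM). In 10 month microglia, replicate 2 was highest for Drc1 (4.37 CPM) and replicate 3 lowest for Tmem212 (1.62 CPM).

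The change from 3 to 6 months differed between astrocytes and oligodendrocyte lineage cells in 11 genes in the fit of the difference. The fit uses the astrocyte values that may have chosen the genes, and Wdr93, Ropn1l, Pifo, Spag6l, Ccdc113 and Tekt1 entered it through their astrocyte levels alone, so these values are a description. The astrocyte change minus the oligodendrocyte change, on the log2 scale, was 3.08 for Wdr93, 3.06 for Ropn1l, 1.90 for Dnah5, 1.05 for Ccdc40, 0.89 for Dnaic2, −1.52 for Dnah11, −1.62 for Dnah9, −1.84 for Tekt1, −1.96 for Ccdc113, −2.15 for Spag6l and −2.39 for Pifo.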

How the results depend on the processing

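Among the named genes, no value that was called in the reported or the alternative run reversed its direction. A change of sign in a value called in neither run was not counted. The count of the 40 genes called stayed within 1.5 times its reported value under RLE scaling, DESeq2 and a filter at 1 CPM in every comparison. Without the filter on low counts it was 11 at 10 over 6 months in astrocytes, 20 in oligodendrocyte lineage cells (17 higher and 3 lower, of 40 tested) and 2 in microglia. With the correction for GC content and length it was 2 at 10 over 6 months. In cultures the replicate block gave 12 calls, and 21 with GC content and length corrected for besides. The cause of these moves was not tested. Elsewhere same-numbered libraries correlated by −0.241 to 0.174 and share only a number; there the block gave 19 calls at 6 over 3 months and 35 at 10 over 3 months in astrocytes, 4 at 10 over 6 months and 9 in oligodendrocyte lineage cells.

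Leaving out 1 library at a time gave 15 to 24 calls at 6 over 3 months, 13 to 33 at 10 over 3 months, 0 to 6 at 10 over 6 months, 3 to 15 in oligodendrocyte lineage cells, 0 to 2 in microglia, 0 in cultures, 40 between sorts and 7 to 14 for the difference of age effects (7 without replicate 3 of the oligodendrocyte lineage cells at 3 or at 6 months). Of the values of single named genes, 1245 stayed on their side of the threshold, 72 lost a call and 11 gained one. The 10 month astrocytes are 2 libraries, and of the 40 genes 19 in oligodendrocyte lineage cells and 14 in microglia were too low to test, which limits what those comparisons can show.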
